A study of Mus musculus with 6 samples.

Results

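The genes described here are 32 genes of the mouse lens, among them 15 crystallins, measured by RNA-seq in corneal endothelium, a tissue that faces the lens across the anterior chamber. They were taken by name from a set of crystallins other than Cryab, fibre membrane and cytoskeleton genes and lens transcription factors, and all 32 were found among the 57180 gene identifiers of the deposited tables. The libraries labelled Tcf4+/- came from mice homozygous for Col8a2 Q455K that also carried a heterozygous knockout of Tcf4 (genotype label Col8a2Q455K/Q455K/Tcf4+/-, n = 3). The Col8a2 libraries came from mice homozygous for Col8a2 Q455K alone (genotype label Col8a2Q455K/Q455K, n = 3). Both groups therefore carry the Col8a2 mutation, which models Fuchs dystrophy of the corneal endothelium, and no wild-type library is analysed here. The sources used here do not give the age of the mice or the kind of knockout allele. They also do not say whether a library is 1 animal or several pooled corneas, so the p-values cover the spread among these libraries only, and some of it may be technical.

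The lens is a closed ball of cells with an epithelium on its front face. Epithelial cells at the equator leave the cell cycle and become fibres, which elongate, fill with crystallins and lose their nuclei. Alpha, beta and gamma crystallins are the soluble proteins that give the lens its refractive power, and transcripts of the gamma A to F group are made mainly in fibres. Foxe3 and Pitx3 encode transcription factors of the lens epithelium, whereas Maf, Prox1, Sox1 and Hsf4 encode factors that act as cells turn into fibres.

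Sequences upstream of 6 crystallin genes are shown because they cover the alpha, beta, gamma S and gamma A to F classes whose levels the results turn on. Each is the 120 bases before the annotated start, from RefSeq on build GRCm38.p6, read 5′ to 3′ on the strand of the gene. The deposited tables use build GRCm39, so these positions belong to the sequences only. Capitals mark TATAAA and TATATA, letters of the TATA box, and TGCTGA, the core of the element bound by MAF proteins. Both strands were searched, and TATATA reads the same on either.
Cryaa, chr17:31677811-31677930, plus strand: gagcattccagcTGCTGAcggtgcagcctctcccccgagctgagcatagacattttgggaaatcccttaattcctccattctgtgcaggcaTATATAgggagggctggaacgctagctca
Crybb2, chr5:113070118-113070237, minus strand: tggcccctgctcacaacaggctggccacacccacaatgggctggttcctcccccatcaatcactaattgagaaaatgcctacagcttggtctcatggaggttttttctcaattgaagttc
Crygs, chr16:22811411-22811530, minus strand: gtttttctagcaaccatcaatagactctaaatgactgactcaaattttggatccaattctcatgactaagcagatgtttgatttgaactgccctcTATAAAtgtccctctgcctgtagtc
Crygb, chr1:65082291-65082410, minus strand: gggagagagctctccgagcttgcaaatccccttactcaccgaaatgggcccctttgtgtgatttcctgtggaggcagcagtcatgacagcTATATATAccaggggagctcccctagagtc
Crygc, chr1:65073533-65073652, minus strand: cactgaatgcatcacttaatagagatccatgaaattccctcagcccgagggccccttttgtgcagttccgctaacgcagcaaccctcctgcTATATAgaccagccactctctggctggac
Crygd, chr1:65063441-65063560, minus strand: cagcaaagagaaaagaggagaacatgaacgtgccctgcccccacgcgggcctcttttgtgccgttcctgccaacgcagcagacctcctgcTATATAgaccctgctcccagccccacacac

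TATATA stood in the 120-base window of 8 of 15 crystallin promoters (53.3%), against 2.51% of 32851 mouse promoters of the same length. All 6 promoters of the gamma A to F group held it, at a distance of 29 to 30 bases from the start in Crygb, Crygc and Crygd, 39 in Cryga, 104 in Cryge and 118 in Crygf. Crygn, a crystallin whose level did not follow that of the others, held it at 30 bases too. TGCTGA stood in 5 of 15 crystallin promoters (33.3%) and in 8.18% of all promoters, and TATAAA in 3 of 15 (20.0%) and 6.34%. The letters TATATA were added to the search after the sequences had been seen, and a match is a description of these letters, not a site of binding.

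Estimated counts summed to between 30344161 and 54265479 per library. Genes of the labelled cell type were detected in every library. Summed over 12 endothelium genes, among them Col8a1, Slc4a11 and Aqp1, the level was 24615, 27473 and 13456 CPM in the Tcf4+/- libraries and 17608, 21567 and 27144 CPM in the Col8a2 libraries (CPM, counts relative to library size after TMM scaling). Tcf4 itself stood at 440, 599 and 373 CPM in the Tcf4+/- libraries, against 312, 469 and 430 CPM in the Col8a2 libraries, with a log2 fold change of 0.22 and an interval from -0.52 to 0.96. The level of Tcf4 was thus not lower in the libraries labelled Tcf4+/-, and every group name and direction here rests on the labels alone.

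Crystallin transcripts were abundant in Tcf4+/- replicates 2 and 3 and scarce in the 4 other libraries. The 15 crystallins summed to 102, 4266 and 11492 CPM in the Tcf4+/- libraries, against 615, 24.4 and 299 CPM in the Col8a2 libraries. Tcf4+/- replicate 1 thus lay inside the Col8a2 range, below Col8a2 replicates 1 and 3, and the groups overlapped. As a share of all counts the crystallins made up 0.433% and 1.12% in Tcf4+/- replicates 2 and 3 and 0.010% in replicate 1, against 0.0599%, 0.00259% and 0.0295% in the Col8a2 libraries. The 95% Wilson intervals of these shares were narrow, from 1.119% to 1.127% in Tcf4+/- replicate 3 and from 0.002448% to 0.00274% in Col8a2 replicate 2, and cover counting error only. In bulk RNA, more cells of a type and more RNA per cell cannot be told apart. The mean sum was 16.9 times as high in the Tcf4+/- group, a log2 ratio of 4.08, and the SD within a group was as large as its mean, at 5286 ± 5763 CPM in the Tcf4+/- group and 313 ± 296 CPM in the Col8a2 group (mean ± SD, n = 3 each). Without Tcf4+/- replicate 3 the log2 ratio was 2.80, without Col8a2 replicate 1 it was 5.03, and without Tcf4+/- replicates 2 and 3 it was -1.63.

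**Figure D1:**
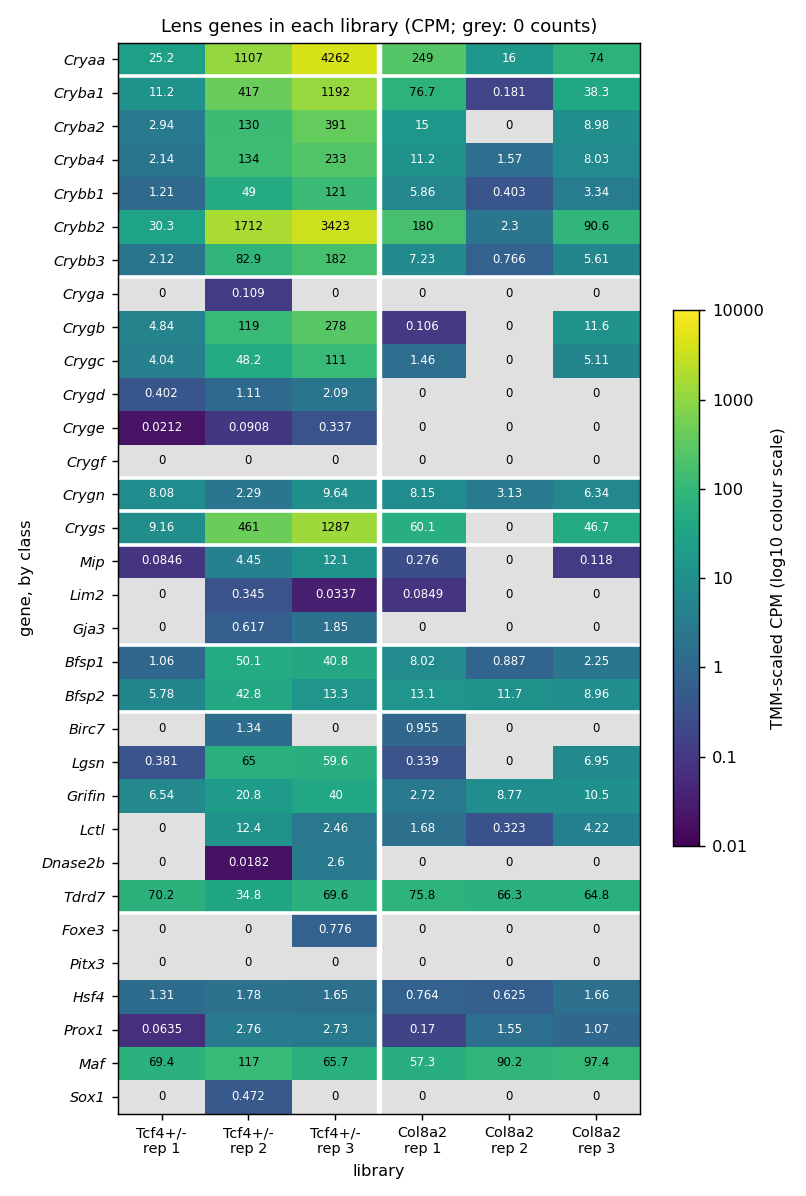
Level of each of the 32 lens genes in each library, in TMM-scaled CPM, printed in the cell and coloured on a log10 scale, with libraries across (Tcf4+/- left, Col8a2 right) and genes down by class. Grey cells hold 0 counts; the alpha, beta, gamma B, gamma C and gamma S crystallins were highest in Tcf4+/- replicate 3, and Tdrd7 and Maf were measured at 34.8 CPM or more in every library.

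No lens gene passed the test between the groups. Of the 32 genes, 22 had enough counts to be tested by edgeR's quasi-likelihood test. At a Benjamini-Hochberg adjusted p under 0.05, 0 of these 22 were called higher and 0 lower, beside 0% of all 17639 genes tested in either direction. At an unadjusted p under 0.05, 10 of the 22 were higher in the Tcf4+/- group, where 1.42% of all genes tested were, and 0 were lower, where 1% were. DESeq2 called 1 lens gene, Crygd, higher (adjusted p = 0.0112), beside 0.364% of its 20874 genes with an adjusted p called higher, and 0 lens genes lower, beside 0.149%. limma voom called 0 lens genes in either direction, beside 0% of all 17639 genes. Of the 22, 21 were fitted higher, with a median log2 fold change of 4.02, where 50.1% of all genes tested were fitted higher and the median was 0.00. The median standard error of the 22 was 1.48 on the log2 scale, and the 3 libraries of a group spread widely. Groups did not overlap for 1 of the 22, Crygd, where 4.53% of all genes tested were higher with no overlap, and 0 were lower with no overlap, where 3.57% of all genes were. Among the untested members Cryge, with 16 counts in all, did not overlap either. That rests on 1 count in Tcf4+/- replicate 1, and the 4.53% above covers tested genes only.

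Most tested members were highest in the same pair of libraries. For 17 of the 22 tested members the highest levels were those of Tcf4+/- replicates 2 and 3, which held for 7.63% of all genes tested. The members are thus not separate results. Their counts set beside the shares of all genes above are descriptions only. With both libraries left out, 16 of the 22 were fitted lower and 6 higher, with a median log2 fold change of -1.26, where 55.3% of the 20374 genes in that fit were fitted lower. These libraries were chosen for their high crystallin levels after seeing the data, so that choice itself lowers the fold changes. The fit leaves 1 library in the group and called 0 genes of any kind. Of the 23 members with a count in the Col8a2 group, Tcf4+/- replicate 1 lay within the Col8a2 range for 20.

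**Figure D2:**
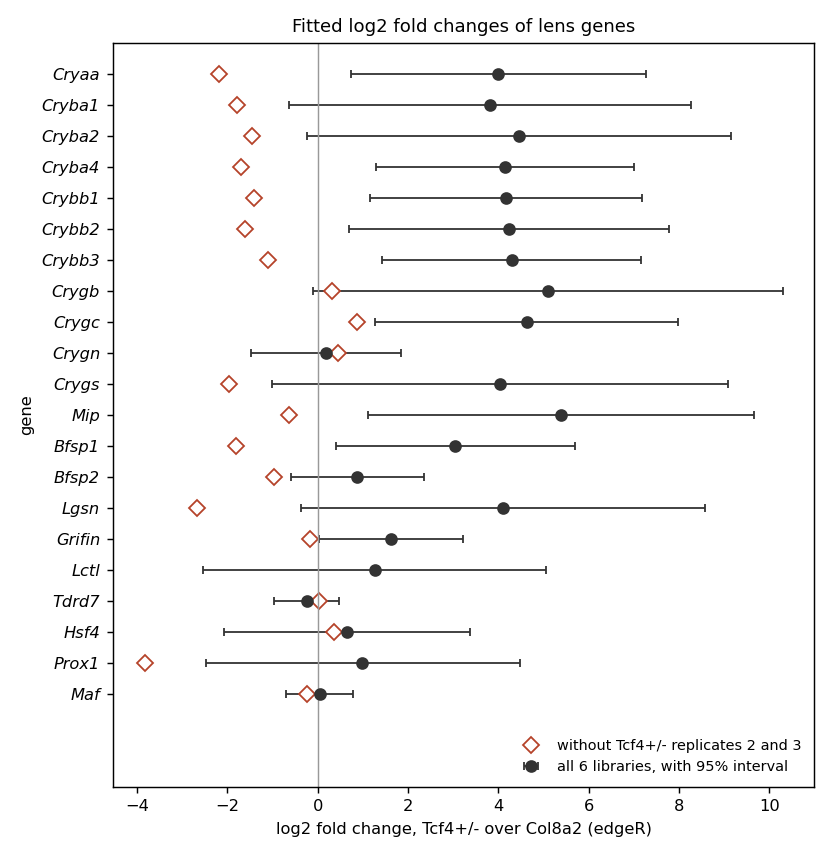
Fitted log2 fold changes of 21 tested lens genes, Tcf4+/- over Col8a2, from edgeR (filled points, bars are 95% intervals, 3 libraries a group) and without Tcf4+/- replicates 2 and 3 (open diamonds, 1 library against 3). Crygd, at 0 counts in all Col8a2 libraries, is left out, as is the diamond of Lctl, at 0 counts in Tcf4+/- replicate 1; the filled points of the alpha, beta, gamma B, gamma C and gamma S crystallins lie between 3.81 and 5.10, and the diamonds of the alpha, beta and gamma S crystallins lie below 0.

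The alpha crystallin Cryaa, a small heat shock protein that keeps other lens proteins soluble, was the most abundant member by counts in Tcf4+/- replicate 3. It had 25.2, 1107 and 4262 CPM in the Tcf4+/- libraries, against 249, 16.0 and 74.0 CPM in the Col8a2 libraries. Tcf4+/- replicate 1 stood above only Col8a2 replicate 2, so the groups overlapped. The log2 fold change was 3.99 (standard error 1.46, 95% interval 0.73 to 7.26, edgeR adjusted p = 0.99988, unadjusted p = 0.0216). Cryaa was the crystallin with the highest level in Col8a2 replicate 2, ahead of Crygn at 3.13 CPM and Crybb2 at 2.30 CPM.

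The 6 beta crystallins, structural proteins that assemble with one another in the fibre, had the same order of libraries as Cryaa. Crybb2 had 30.3, 1712 and 3423 CPM in the Tcf4+/- libraries, against 180, 2.30 and 90.6 CPM in the Col8a2 libraries. Cryba1 had 11.2, 417 and 1192 CPM in the Tcf4+/- libraries and 76.7, 0.181 and 38.3 CPM in the Col8a2 libraries. For both, Tcf4+/- replicates 2 and 3 lay above all other libraries and Tcf4+/- replicate 1 lay below Col8a2 replicates 1 and 3. The remaining beta genes were lower in level, as Cryba4, Crybb1 and Crybb3 reached 233, 121 and 182 CPM in Tcf4+/- replicate 3 and at most 11.2, 5.86 and 7.23 CPM in the Col8a2 libraries. Cryba2 averaged 175 ± 198 CPM in the Tcf4+/- group and 8.0 ± 7.56 CPM in the Col8a2 group (mean ± SD, n = 3 each). The log2 fold changes of the 6 genes ran from 3.81 for Cryba1 to 4.45 for Cryba2, and the smallest unadjusted p was that of Crybb3 (0.00772, edgeR adjusted p = 0.99988). Cryba2 had 0 counts in Col8a2 replicate 2, where 3 counts would be 0.0643 CPM.

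Crygs, the gamma crystallin of the adult lens cortex, stood at 9.16, 461 and 1287 CPM in the Tcf4+/- libraries, against 60.1, 0 and 46.7 CPM in the Col8a2 libraries. It was thus undetected in the library where Cryaa still had 794 counts. In the other libraries Crygs had between 24.1 and 63.1 counts for every 100 counts of Cryaa. In Col8a2 replicate 2 the exact 95% interval allows up to 0.466 per 100, for counting error only, and the spread that library preparation adds was not measured. Crybb2 was also low against Cryaa in that library, at 14.4 counts per 100 (95% interval 11.7 to 17.5), where the others held 72.4 to 155 per 100.

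The gamma A to F crystallins lie together on chromosome 1 except Crygf, which lies apart on the same chromosome, and they were detected unevenly. Crygb had 4.84, 119 and 278 CPM in the Tcf4+/- libraries, against 0.106, 0 and 11.6 CPM in the Col8a2 libraries. Crygc had 4.04, 48.2 and 111 CPM in the Tcf4+/- libraries, against 1.46, 0 and 5.11 CPM in the Col8a2 libraries. Unlike the beta crystallins, both were higher in Tcf4+/- replicate 1 than in Col8a2 replicate 1, though lower there than in Col8a2 replicate 3. Without Tcf4+/- replicates 2 and 3 they kept a positive log2 fold change, of 0.31 for Crygb and 0.88 for Crygc, against 5.10 and 4.63 with all libraries. The fold change of Crygb was 11.25 without Col8a2 replicate 3, which holds nearly all of its Col8a2 counts.

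Crygd was detected in the Tcf4+/- group alone, at a low level. It had 19, 61 and 62 counts in the Tcf4+/- libraries, or 0.402, 1.11 and 2.09 CPM, and 0 counts in each Col8a2 library. With counts pooled over each group and the Col8a2 group set at a floor of 3 counts in all, Crygd was 52.3-fold higher in the Tcf4+/- group. This value takes no account of the spread among libraries. The 95% interval of the log2 fold change had a lower end of 3.52 (edgeR unadjusted p = 0.00515, adjusted p = 0.99988). Crygd was the only tested member for which every Tcf4+/- library, replicate 1 included, stood above every Col8a2 library, as did 4.53% of all genes tested. A gene at 0 counts in the Col8a2 group passes the count filter only with counts in every Tcf4+/- library. The lack of overlap was thus fixed once Crygd was tested. Cryge had 1, 5 and 10 counts in the Tcf4+/- libraries and 0 in the Col8a2 libraries, Cryga had 6 counts in Tcf4+/- replicate 2 only, and Crygf had 0 counts in every library.

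How reads are shared among these copies bears on those values. The first 60 coding bases of the 6 genes, from GENCODE M21, are shown because they show how close the copies are, with capitals at bases that differ from Crygb.
Crygb: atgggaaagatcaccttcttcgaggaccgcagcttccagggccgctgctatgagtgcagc
Cryga: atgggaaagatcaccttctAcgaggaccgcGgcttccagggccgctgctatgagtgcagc
Crygc: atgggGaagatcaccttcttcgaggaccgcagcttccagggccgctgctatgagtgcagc
Crygd: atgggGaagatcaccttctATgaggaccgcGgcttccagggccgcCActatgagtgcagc
Cryge: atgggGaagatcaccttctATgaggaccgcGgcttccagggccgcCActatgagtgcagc
Crygf: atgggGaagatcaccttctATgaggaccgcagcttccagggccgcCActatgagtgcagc

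Crygd and Cryge are identical over these bases and differ from Crygb at 6 of them, whereas Crygc differs at 1. Over the whole coding sequence Cryge and Crygf were 98.1% identical, Crygd and Cryge 91.6%, and Crygb and Crygc 83.7%. Of the 50-base windows of the coding sequence, 63.7% in Cryge, 42.2% in Crygf, 36.7% in Crygc, 35.9% in Crygb, 34.7% in Crygd and 6.93% in Cryga occur unchanged in another of the 6 genes. The split of estimated counts among the 6 genes, Crygb and Crygc included, is therefore uncertain, and the sum over the 6 genes is the firmer value. That sum was 9.31, 169 and 391 CPM in the Tcf4+/- libraries and 1.57, 0 and 16.7 CPM in the Col8a2 libraries, with Tcf4+/- replicate 1 again between Col8a2 replicates 1 and 3. Fitted as 1 gene, it had a log2 fold change of 4.96 with a standard error of 1.97 (edgeR unadjusted p = 0.0385, adjusted p = 1).

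Crygn, a gamma crystallin related to the beta family, did not follow the others. It had 8.08, 2.29 and 9.64 CPM in the Tcf4+/- libraries, against 8.15, 3.13 and 6.34 CPM in the Col8a2 libraries, with a log2 fold change of 0.18 and an interval from -1.48 to 1.85. The highest library stood 4.22 times above the lowest, where the ratio was 266 for Cryaa and 1490 for Crybb2. For the 15237 tested genes with a count in every library the median of this ratio was 2.97.

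**Figure D3:**
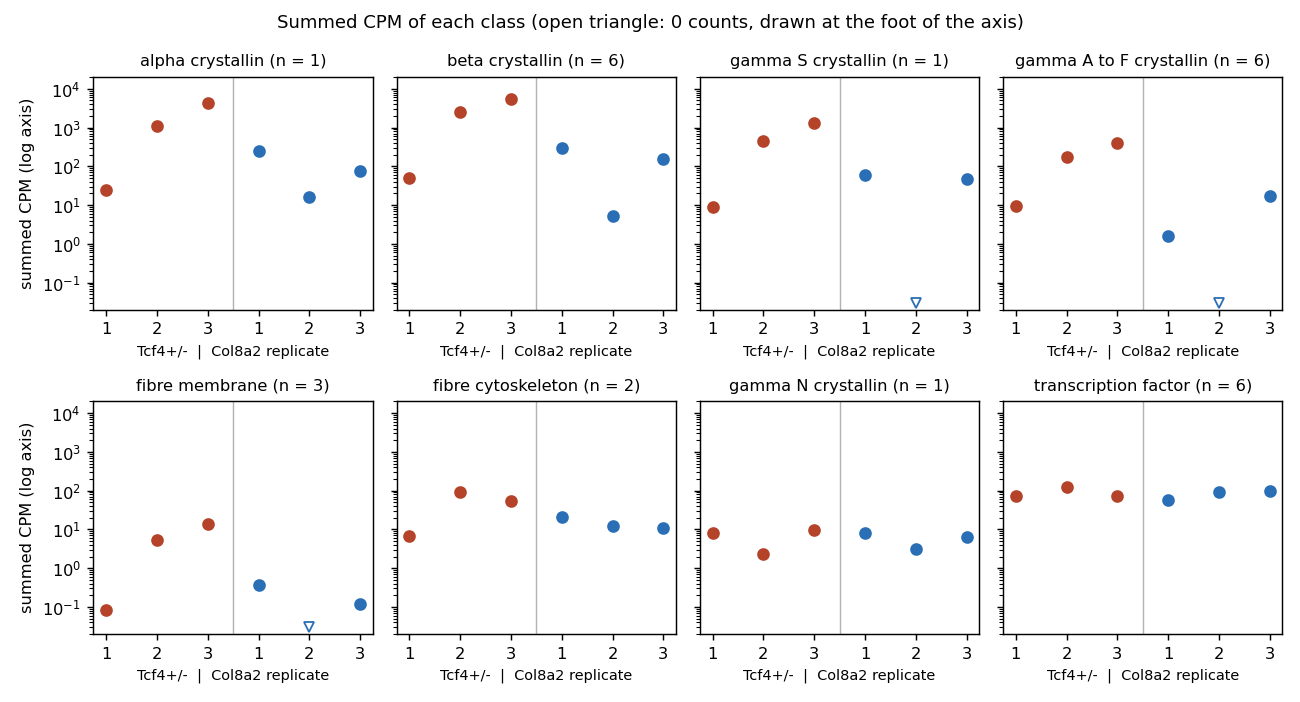
Summed CPM of each class of lens gene in each library on a log axis, Tcf4+/- replicates in red at the left of each panel and Col8a2 replicates in blue at the right, 1 point a library and n the number of genes in the class. Open triangles mark 0 counts; Tcf4+/- replicates 2 and 3 lie above all other libraries in the alpha, beta, gamma S, gamma A to F, membrane and cytoskeleton classes, but not in the gamma N and transcription factor classes.

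The make-up of the crystallin pool differed between libraries. Measured per length, as shares of summed TPM within a library, Crybb2 came first and Cryaa next in every library but Col8a2 replicate 2, where Cryaa made up 50.1% and Crygn 18.7%. Beta crystallins made up 55.2%, 66.7% and 57.8% in the Tcf4+/- libraries and 59.9%, 31.2% and 59.7% in the Col8a2 libraries. The gamma A to F group made up 13.2%, 5.46% and 4.97% in the Tcf4+/- libraries and 0.326%, 0% and 7.88% in the Col8a2 libraries. Col8a2 replicate 1 thus stood apart, as it held more crystallin RNA than Col8a2 replicate 3 but almost none of the gamma A to F group. It had 5 counts of Crygb beside 11737 of Cryaa, or 0.0426 per 100 Cryaa counts (exact 95% interval 0.0138 to 0.0994). Col8a2 replicate 3 had 15.7 per 100 (14.4 to 17.1) and the Tcf4+/- libraries 19.3, 10.8 and 6.52 per 100. The split between the copies is uncertain, and Crygc was less scarce. It had 69 counts in Col8a2 replicate 1, or 0.588 per 100 (0.457 to 0.745). For Crygc, Col8a2 replicate 3 had 6.91 per 100 (6.07 to 7.84) and the Tcf4+/- libraries 16.1, 4.35 and 2.6 per 100. These intervals cover counting error only, not the spread that library preparation adds.

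**Figure D4:**
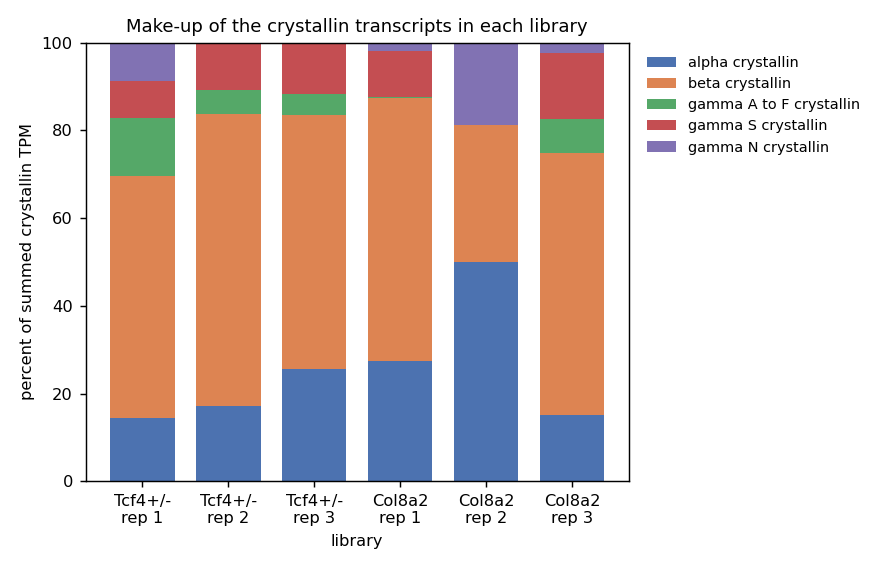
Share of each crystallin class in the summed TPM of the 15 crystallins, in percent, 1 bar a library, Tcf4+/- left and Col8a2 right. The gamma A to F share (green) is 0.326% in Col8a2 replicate 1 and 0% in Col8a2 replicate 2, against 4.97% to 13.2% in the other libraries.

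As a class, genes of the fibre membrane were far scarcer than the alpha and beta crystallins. Mip, which encodes the water channel aquaporin 0 of fibre membranes, had 0.0846, 4.45 and 12.1 CPM in the Tcf4+/- libraries, against 0.276, 0 and 0.118 CPM in the Col8a2 libraries. The highest libraries were again Tcf4+/- replicates 2 and 3, and the log2 fold change was 5.38 with a standard error of 1.91 (edgeR unadjusted p = 0.0188, adjusted p = 0.99988). On the length-corrected scale Mip reached 5.03 TPM in Tcf4+/- replicate 3, where Cryaa stood at 3259 TPM. Against 100 Cryaa counts there were 0.336, 0.402 and 0.285 counts of Mip in the Tcf4+/- libraries and 0.111, 0 and 0.160 in the Col8a2 libraries. Gja3, the gap junction protein connexin 46, had 0, 34 and 55 counts in the Tcf4+/- libraries and 0 in the Col8a2 libraries. Its pooled counts were 32.8-fold higher against the floor of 3 counts over the group, which takes no account of the spread among libraries. Lim2, a fibre membrane protein, had 0, 19 and 1 counts in the Tcf4+/- libraries and 4, 0 and 0 in the Col8a2 libraries.

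The beaded filament, the cytoskeleton particular to fibres, is built of the products of Bfsp1 and Bfsp2, and these genes had different patterns. Bfsp1 had 1.06, 50.1 and 40.8 CPM in the Tcf4+/- libraries, against 8.02, 0.887 and 2.25 CPM in the Col8a2 libraries. Bfsp2 had 5.78, 42.8 and 13.3 CPM in the Tcf4+/- libraries, against 13.1, 11.7 and 8.96 CPM in the Col8a2 libraries. Bfsp1 thus followed the crystallins, whereas Bfsp2 kept 11.7 CPM in the library with the fewest crystallin reads and was clearly high in Tcf4+/- replicate 2 alone. Their log2 fold changes were 3.04 and 0.87 with standard errors of 1.18 and 0.66, and that of Bfsp2 was -0.22 without Tcf4+/- replicate 2. Bfsp1 counts per 100 Cryaa counts also differed between the 2 crystallin-rich libraries, at 4.52 in Tcf4+/- replicate 2 and 0.957 in Tcf4+/- replicate 3.

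The remaining fibre genes had unlike patterns. Lgsn, lengsin, a lens protein related to glutamine synthetase, had 0.381, 65.0 and 59.6 CPM in the Tcf4+/- libraries, against 0.339, 0 and 6.95 CPM in the Col8a2 libraries, and Tcf4+/- replicate 1 lay within the Col8a2 range. Grifin, a galectin-related protein of the fibre, had 6.54, 20.8 and 40 CPM in the Tcf4+/- libraries, against 2.72, 8.77 and 10.5 CPM in the Col8a2 libraries. It was highest in Tcf4+/- replicates 2 and 3 but was never below 2.72 CPM, and in Col8a2 replicate 2 it had 54.8 counts per 100 of Cryaa, against 0.938 in Tcf4+/- replicate 3. Lctl, a member of the klotho family, had 0, 12.4 and 2.46 CPM in the Tcf4+/- libraries and 1.68, 0.323 and 4.22 CPM in the Col8a2 libraries, and the sign of its log2 fold change of 1.26 turned to -0.72 without Tcf4+/- replicate 2.

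Dnase2b, the nuclease that removes DNA from maturing fibres, had 0, 1 and 77 counts in the Tcf4+/- libraries and 0 in each Col8a2 library. Birc7, an inhibitor of apoptosis, had 0, 74 and 0 counts in the Tcf4+/- libraries and 45, 0 and 0 in the Col8a2 libraries. Each was thus seen in 2 libraries only, and neither had enough counts to be tested. Tdrd7, an RNA granule protein also made outside the lens, had 70.2, 34.8 and 69.6 CPM in the Tcf4+/- libraries, against 75.8, 66.3 and 64.8 CPM in the Col8a2 libraries, and was the only tested member fitted lower, with a log2 fold change of -0.24 and an interval from -0.96 to 0.47. That sign was positive, at 0.08 and 0.07, on the log2(TPM + 0.1) and log2(TPM + 1) scales and at 0.03 without Tcf4+/- replicate 2.

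The epithelial side of the list was all but absent. Foxe3, which keeps lens epithelial cells dividing, had 23 counts in Tcf4+/- replicate 3, or 0.776 CPM, and 0 in the other 5 libraries, where 3 counts would be 0.0553 to 0.0643 CPM. Pitx3, a homeobox factor needed for lens formation, had 0 counts in all 6. Of the 23 fibre members 16, 22 and 20 had a count in the Tcf4+/- libraries and 17, 9 and 15 in the Col8a2 libraries, whereas of these 2 epithelial members 0, 0 and 1 had one in the Tcf4+/- libraries and 0 in each Col8a2 library. The log2 ratio of fibre to epithelial level (geometric means of CPM + 0.1) was 3.10, 6.90 and 5.79 in the Tcf4+/- libraries and 3.98, 1.49 and 4.09 in the Col8a2 libraries. It averaged 5.27 ± 1.95 in the Tcf4+/- group and 3.19 ± 1.47 in the Col8a2 group (mean ± SD, n = 3 each). The difference of 2.08 was 1.23 without Col8a2 replicate 2, 1.27 without Tcf4+/- replicate 2 and 3.16 without Tcf4+/- replicate 1. The groups overlapped, since Tcf4+/- replicate 1 lay below Col8a2 replicates 1 and 3, and with the epithelial level at the added 0.1 CPM in 5 libraries the ratio there reflects the fibre level alone. The added 0.1 CPM is not a limit of detection, and an epithelial level too low to give a count was not detectable at this depth.

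The transcription factors of fibre formation had unlike patterns. Maf, which activates crystallin genes, had 69.4, 117 and 65.7 CPM in the Tcf4+/- libraries, against 57.3, 90.2 and 97.4 CPM in the Col8a2 libraries. The log2 fold change was 0.04 with an interval from -0.70 to 0.78, and its sign changed, to -0.18 and -0.17, on the log2(TPM + 0.1) and log2(TPM + 1) scales. On those scales the median of all genes tested was -0.178 and -0.152, so Maf lay near it. Tcf4+/- replicate 3, with the most crystallin RNA, had less Maf than every library but Col8a2 replicate 1. Hsf4, the heat shock factor of the lens, stood at 1.31, 1.78 and 1.65 CPM in the Tcf4+/- libraries and 0.764, 0.625 and 1.66 CPM in the Col8a2 libraries. Prox1, a homeobox factor also made in lymphatic vessels, had 0.0635, 2.76 and 2.73 CPM in the Tcf4+/- libraries and 0.170, 1.55 and 1.07 CPM in the Col8a2 libraries, and Sox1 had 26 counts in Tcf4+/- replicate 2 and 0 elsewhere. Prox1 was thus highest in the crystallin-rich pair (log2 fold change 0.99, 95% interval -2.48 to 4.47), while Maf was not.

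Lens genes outside the list gave a mixed picture. Of 14 further genes used in fibres that were tested, 7 were fitted higher and 7 lower, with a median log2 fold change of 0.00 beside 0.00 for all genes tested, and 0 had an unadjusted p under 0.05. Cryab, the alpha crystallin also made in many other tissues, stood at 579, 732 and 1469 CPM in the Tcf4+/- libraries, against 709, 647 and 673 CPM in the Col8a2 libraries, and was thus high in Tcf4+/- replicate 3 only. The list of 14 holds genes that are also made outside the lens, such as Cryab, so its median does not measure lens RNA alone. Of 6 genes of the lens epithelium that the cornea or iris also expresses, 3 were fitted higher and 3 lower. Their median was -0.06. Pax6 stood at 135, 77.6 and 158 CPM in the Tcf4+/- libraries and 178, 106 and 131 CPM in the Col8a2 libraries, with no shared order with the crystallins.

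Genes of like pattern were sought among 9701 others with a mean of at least 10 CPM. The 10 whose log2 CPM correlated most with the log2 crystallin sum over the 6 libraries had Pearson's r from 0.954 to 0.984, as a description. The highest of 9701 such values over 6 libraries can be this large without any link, which was not tested. The 10 genes were Nckipsd, Zfp414, Lrrc8c, Vasp, Crip1, Sun2, Rpl22l1, Zfp507, Ptma and Krt15. Their range was far smaller than that of the crystallins. Crip1 stood at 76.0, 147 and 184 CPM in the Tcf4+/- libraries and 77.7, 46.5 and 73.6 CPM in the Col8a2 libraries, and Sun2 at 13.9, 28.6 and 33.9 CPM in the Tcf4+/- libraries and 13.7, 8.13 and 15.4 CPM in the Col8a2 libraries.

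Other features of the libraries were set beside the crystallin level. Markers of rods and cones, 10 of 10 tested and fitted higher where 50.1% of all genes tested were, summed to 5567, 2706 and 11679 CPM in the Tcf4+/- libraries and 3928, 2704 and 2932 CPM in the Col8a2 libraries. They were thus highest in Tcf4+/- replicate 3 and among the lowest in Tcf4+/- replicate 2. Pigment cell markers, all 7 detected, summed to 592, 1531 and 736 CPM in the Tcf4+/- libraries and 1078, 1163 and 355 CPM in the Col8a2 libraries. Of the 9 lists, that of the endothelium and those of other cells, only the 4 Schwann cell genes had their highest sums in the crystallin-rich pair, at 87.0, 104 and 118 CPM in the Tcf4+/- libraries and 99.9, 89.7 and 71.7 CPM in the Col8a2 libraries. All markers of these 3 lists had a count in at least 1 library, and the part of such cells in the crystallin levels was not tested.

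Erythroid genes summed to 6119, 1361 and 2940 CPM in the Tcf4+/- libraries and 1295, 530 and 1965 CPM in the Col8a2 libraries. Corneal epithelium genes summed to 6453, 2124 and 4527 CPM in the Tcf4+/- libraries and 6173, 2853 and 3721 CPM in the Col8a2 libraries, and stromal keratocyte genes to 11317, 17042 and 13697 CPM in the Tcf4+/- libraries and 15241, 9705 and 7705 CPM in the Col8a2 libraries. Leukocyte sums lay between 375 and 603 CPM in the Tcf4+/- libraries and between 211 and 840 CPM in the Col8a2 libraries, and those of iris and ciliary muscle between 163 and 199 CPM in the Tcf4+/- libraries and between 135 and 198 CPM in the Col8a2 libraries. All 5 iris and ciliary muscle genes were nevertheless fitted higher, where 50.1% of all genes tested were, with a median log2 fold change of 1.36. By edgeR 0 of them had an unadjusted p under 0.05. Acta2 and Myh11, the most abundant of them, were nearly level, at 0.01 and 0.10, and with Des, at 1.36, they overlapped between the groups. Cnn1, at 1.97, 1.14 and 3.47 CPM in the Tcf4+/- libraries and 0.106, 0.0403 and 0.928 CPM in the Col8a2 libraries, did not overlap. Nor did Actg2, at 0.783, 1.49 and 1.18 CPM in the Tcf4+/- libraries and 0.0212, 0.343 and 0 CPM in the Col8a2 libraries. Of all genes tested 4.53% were higher with no overlap. Cnn1 and Actg2 were picked out after their values were seen. Of the 5 erythroid genes 5 were fitted higher, where 50.1% of all genes tested were. At an unadjusted p under 0.05 by edgeR 3 of them were higher, where 1.42% of all genes were, and 0 passed after adjustment, beside 0%. All 5 were highest in Tcf4+/- replicate 1, so they are not separate results. A measure of the sequenced fragments did single out the same pair. Transcript length minus effective length was 241, 155 and 150 bases in the Tcf4+/- libraries, against 211, 234 and 234 bases in the Col8a2 libraries. Mitochondrial tRNA genes took 15.6% and 15.8% of TPM in Tcf4+/- replicates 2 and 3 and 0% in the other 4 libraries. TPM is computed with effective length, so this share of very short genes is not independent of the fragment measure and does not measure tRNA content. It also takes TPM from all other genes of that pair, as TPM sums to a fixed total. Whether the difference in fragments has a part in the crystallin levels was not tested.

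**Figure D5:**
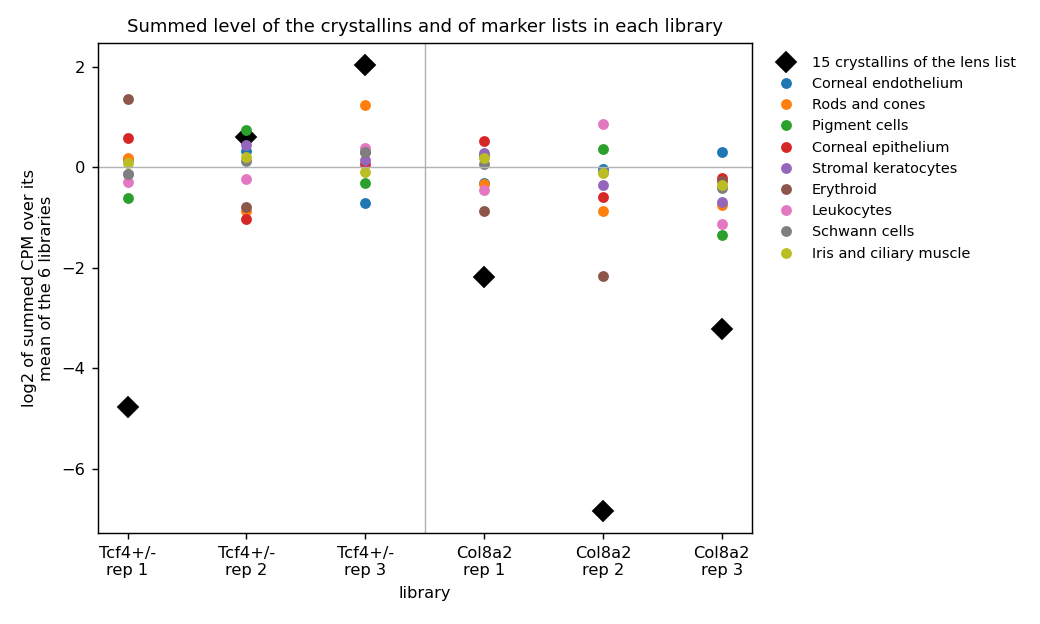
Summed CPM of the 15 crystallins (black diamonds) and of 9 marker lists (coloured points), each as the log2 of its value over its own mean of the 6 libraries, Tcf4+/- left and Col8a2 right. The crystallin sums run from 24.4 to 11492 CPM, while each marker list stays in a much narrower band.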

How the data were processed

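RNA was extracted from corneal endothelial cells with the RNeasy Micro Kit and made into libraries with the SMART-Seq HT and Nextera XT kits, per the labels' protocols, which do not describe a kit that keeps strand. Per the submitters' processing notes, the tools were DESeq2, RSEM, STAR, fastp 0.23.2 and FastQC 0.12.1, and the build was GRCm39. Per the file headers, the authors deposited RSEM expected counts per gene, of which 9.97% are not whole, and TPM values, which are corrected for gene length. Of 57180 identifiers, 51884 were matched to a symbol and 5296 were not.

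Counts were rounded, filtered with filterByExpr (17639 genes left), scaled by TMM (factors 0.973 to 1.06) and tested with edgeR 4.0.16 in R 4.3.3, using robust quasi-likelihood fits with a single term for genotype. P-values were adjusted over all genes by Benjamini-Hochberg, at a threshold of 0.05. Standard errors and 95% intervals follow from the F statistic. The smallest p of an exact permutation of 3 against 3 libraries is 0.1 (two-sided). DESeq2 1.42.0 and limma 3.58.1 were alternatives, and the edgeR script was tested on simulated counts. All 32 members and the 10 genes most like the crystallin sum are named. Further lens genes could be named at a mean of at least 10 CPM in either group, and of these Cryab and Pax6 were picked after their values were seen. An item of the lens lists is not reported here. The members, lists and class names were chosen with earlier results of these data known. Fibre and epithelial sides hold 23 and 2 members, and 7 were placed on neither. RefSeq promoters were matched by symbol for 30 of 32 members.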

Additional observations from a re-analysis of the deposited data

How the results depend on the processing

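Calls were counted under 19 alternatives (18 planned, 1 added after seeing the data), of which 18 called no lens gene and DESeq2 called 1, Crygd. Of those 18, 17 called 0 genes of any kind, and the fit without Col8a2 replicate 3 called 2 higher and 2 lower of 18887. The median log2 fold change of the members lay between 2.20 and 4.12 under the other scalings, filters, tools and units and between 2.75 and 4.59 with any 1 library left out. Without Tcf4+/- replicates 2 and 3 it was -1.26, the log2 ratio of crystallin sums -1.63 and the difference in fibre to epithelium ratio -0.09. That fit gave log2 fold changes of -2.18 for Cryaa, -1.79 for Cryba1, -1.45 for Cryba2, -1.70 for Cryba4, -1.41 for Crybb1, -1.60 for Crybb2, -1.11 for Crybb3, -1.97 for Crygs, -0.63 for Mip, -1.82 for Bfsp1, -0.97 for Bfsp2, -2.67 for Lgsn, -0.17 for Grifin, -3.83 for Prox1, -0.24 for Maf and 0.02 for Tdrd7, each of the other sign than with all libraries. Lctl was at -9.66 there, a fitted value for a library with 0 counts, which depends on the prior count. The sign also turned for Crygn with limma voom (-0.09), for Lctl with limma voom (-0.97) and log2(TPM + 0.1) (-0.29), for Maf on both TPM scales (-0.18 and -0.17) and for Tdrd7 on both (0.08 and 0.07). On the log2(TPM + 0.1) and log2(TPM + 1) scales 63% and 64.8% of all genes tested were fitted lower, with medians of -0.178 and -0.152. With 1 library left out, log2 fold changes ran from -0.22 to 1.32 for Bfsp2, -0.19 to 0.61 for Crygn, -0.72 to 2.31 for Lctl, -0.26 to 0.19 for Maf and -0.41 to 0.03 for Tdrd7. The cause of these turns was not tested.

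The deviations of same-numbered libraries from their group means had r of -0.0328, 0.208 and -0.038 for numbers 1, 2 and 3. Those of libraries with unlike numbers ran from -0.136 to 0.138. With so few libraries these values cannot tell whether the numbers pair the samples, which the labels do not say. With the replicate block 0 members were called, as were 0 of all 17639 genes, the median was 4.05 and Lctl was at -0.73. Members with few counts, such as Foxe3, Cryga and Lim2, are limited by depth.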
